A study of Mus musculus with 24 samples.

Results

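The genes described are those of mitochondrial oxidative phosphorylation that are encoded in the nucleus. They were taken from the 23283 gene rows of the count table by symbol: every symbol starting with Nduf, Uqcr, Cox4, Cox5, Cox6, Cox7, Cox8 or Atp5, together with Sdha, Sdhb, Sdhc, Sdhd, Cyc1 and Cycs. This gave 92 genes, of which 83 encode subunits of the chain itself: 7 core and 29 accessory subunits of complex I, 4 of complex II, 9 of complex III, cytochrome c, 11 ubiquitous and 7 tissue-restricted subunits of complex IV, and 15 of complex V. The prefixes also took 4 complex I assembly factors (Ndufaf genes) and 5 other genes: Ndufa4l2, Cox7a2l, Atp5s, Atp5sl and Cox4nb, the last of which is a subunit of a membrane protein insertion complex and not of the respiratory chain. None of the 13 subunits encoded in the mitochondrial genome matched a symbol in the table, so they are not analysed here.

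RNA of the cytosol was sequenced in 24 mouse libraries of 6 groups, each from 1000 cells. Mouse embryonic fibroblasts (MEF), a primary culture of connective tissue cells, gave 4 libraries of unsorted cells, the bulk MEF. Another 4 fast and 4 slow cycling MEF libraries came from cells in which doxycycline had induced the Yamanaka reprogramming factors for 6 days, sorted by 48 hours of dilution of the division dye CFSE. Granulocyte monocyte progenitors (GMP), blood progenitors kept in culture with cytokines, were sorted after 24 hours of dye dilution into 5 fast and 3 slow libraries, and 4 libraries came from established induced pluripotent stem (iPS) cells that grew without doxycycline. Bulk MEF grew in a serum medium, and the induced MEF grew in embryonic stem cell medium with LIF plus doxycycline. The factors, the medium and the sorting by dye therefore cannot be told apart in comparisons of induced with bulk MEF. The labels describe the bulk MEF as unsorted and also as slow cycling. They do not give the strain, the animals, the transgene that carries the factors or the number of iPS lines, and do not say whether libraries of a group came from separate cultures. The p-values therefore rest on how far the libraries of a group scatter, and this scatter may be technical.

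The respiratory chain passes electrons from NADH through complex I, or from succinate through complex II, to ubiquinone, then through complex III and cytochrome c to oxygen at complex IV. Complexes I, III and IV pump protons across the inner mitochondrial membrane, and complex V, the ATP synthase, uses the resulting gradient to make ATP. Pluripotent stem cells are known for relying strongly on glycolysis, and several complex IV subunits exist as pairs of genes of which one is found in most cells and the other in few.

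Library totals ran from 2098846 to 18648132 counts, and levels are given as CPM, counts scaled to the library total, with TMM factors over all libraries. In the GMP libraries, Rn45s and Lars2 took 19.9% to 48.86% of all counts, against 3.05% to 11.73% elsewhere. Fast GMP library 1 stood apart, with 18402 genes detected, where the remaining GMP libraries had 9380 to 14168. The marker lists gave the labelled cell types: the 11 GMP markers summed to 5352 to 25230 CPM in GMP and to at most 61.8 CPM in any other library, and the 9 pluripotency markers to 2339 to 3630 CPM in iPS cells. Their sum of 224 to 514 CPM in fast MEF came mostly from Sox2, at 200 CPM or more in each library, and Pou5f1, at 20.1 to 112 CPM, both of them Yamanaka factors, and none of the other 7 passed 6.77 CPM there. In fast MEF, the 8 fibroblast markers summed to 1986 to 4965 CPM against 24566 to 41342 in bulk and 40990 to 78087 in slow MEF, and the keratin Krt14 read 6452 to 11666 CPM, against at most 559 in any other library. The other 2 keratinocyte keratins stayed low in fast MEF, with Krt5 at most 1.04 and Krt15 at most 0.957 CPM, while Krt15 reached 68.3 CPM in slow MEF. The 5 macrophage markers, led by C1qc at 77.7 to 158 CPM, summed to 180 to 283 CPM in bulk MEF. They summed to 0.391 to 107 CPM in slow MEF, 5.02 to 28.6 in fast MEF, 15.8 to 55.4 in iPS cells, 109 to 224 in slow GMP and 190 to 438 in fast GMP, so that they were highest in bulk MEF in every comparison of bulk MEF with induced MEF or iPS cells. The part of these shifts in the subunit levels was not tested, and in such sorted populations fewer cells of a type and less RNA per cell cannot be told apart.

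The promoters of respiratory chain genes are known to carry sites for the activators NRF1, GABP (an ETS factor) and YY1, so these 3 motifs were looked up in the 300 bases around the start of each gene, from RefSeq on GRCm38.p6. Of the 92 genes, 75 had an entry. The NRF1 motif, a palindrome that stands in capitals in the Uqcrc1 promoter printed here, was found on either strand in 6 of them (8.0%), against 1.07% of all genes with an entry and 2.16% of those tested between fast and slow MEF. The YY1 letters AAGATGGCG were found in 8 (10.7%), against 1.64% and 3.11%. The ETS and GABP letters CCGGAAG were found in 17 (22.7%), against 9.93% and 17.8%. The ETS and YY1 letters can overlap by AAG, and a match is only a description of the letters. At least 1 of the 3 motifs was found in 28 of the 75. The 5 promoters printed here are a selection in which matches are more common than among all members. They read 5′ to 3′ on the gene's strand with motif matches on either strand in capitals. Uqcrh, whose level fell furthest in fast MEF, has 1 ETS match (promoter at chr4:116075021-116075320, minus strand). Uqcrc1 has 1 NRF1 match (chr9:108936398-108936697, plus strand). Cox6a1 (chr5:115348909-115349208, minus strand) and Atp5k (chr5:108434350-108434649, minus strand) each have both an NRF1 and an ETS match. Cox6b2 (chr7:4753045-4753344, minus strand), a gene with higher levels in iPS cells, has none of the 3.
Uqcrh: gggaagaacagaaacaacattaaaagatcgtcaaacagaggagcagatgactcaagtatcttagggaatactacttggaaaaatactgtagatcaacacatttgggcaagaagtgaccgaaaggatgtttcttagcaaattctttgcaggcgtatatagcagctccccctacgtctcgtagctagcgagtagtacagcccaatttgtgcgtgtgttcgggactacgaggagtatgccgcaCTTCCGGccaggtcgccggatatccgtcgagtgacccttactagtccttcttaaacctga
Uqcrc1: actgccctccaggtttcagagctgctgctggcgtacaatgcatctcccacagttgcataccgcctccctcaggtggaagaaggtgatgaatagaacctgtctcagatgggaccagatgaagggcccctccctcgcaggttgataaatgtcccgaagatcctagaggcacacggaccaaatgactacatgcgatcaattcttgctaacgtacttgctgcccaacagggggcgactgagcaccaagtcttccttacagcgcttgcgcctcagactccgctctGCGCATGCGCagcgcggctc
Cox6a1: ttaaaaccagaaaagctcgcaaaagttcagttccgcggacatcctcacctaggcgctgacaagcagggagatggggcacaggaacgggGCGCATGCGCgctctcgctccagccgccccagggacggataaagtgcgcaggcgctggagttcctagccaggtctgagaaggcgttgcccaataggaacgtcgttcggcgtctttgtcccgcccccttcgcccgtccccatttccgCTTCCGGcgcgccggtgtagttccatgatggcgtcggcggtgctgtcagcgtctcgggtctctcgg
Atp5k: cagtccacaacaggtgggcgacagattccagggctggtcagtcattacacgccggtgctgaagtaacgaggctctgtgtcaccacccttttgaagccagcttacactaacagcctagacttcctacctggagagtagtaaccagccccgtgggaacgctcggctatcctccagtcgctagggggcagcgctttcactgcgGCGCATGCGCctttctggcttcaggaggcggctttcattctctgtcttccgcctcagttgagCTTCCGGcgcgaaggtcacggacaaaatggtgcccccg
Cox6b2: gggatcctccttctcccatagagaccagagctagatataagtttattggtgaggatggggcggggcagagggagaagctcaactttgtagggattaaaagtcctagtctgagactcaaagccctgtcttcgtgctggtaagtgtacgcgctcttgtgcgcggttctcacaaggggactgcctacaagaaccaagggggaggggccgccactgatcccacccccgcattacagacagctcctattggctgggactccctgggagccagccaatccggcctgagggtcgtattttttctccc

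Summed over the 83 subunit genes, the level was lowest in the induced MEF. It was 7889 ± 1980 CPM in bulk MEF (SD, n = 4), 5593 ± 240 in slow MEF (n = 4), 5303 ± 535 in fast MEF (n = 4) and 10081 ± 1291 in iPS cells (n = 4). All 4 iPS libraries, from 8223 to 11091 CPM, lay above all 8 libraries of induced MEF, from 4817 to 5926 CPM, while bulk MEF spread from 5577 to 10285 CPM and overlapped the slow MEF, the fast MEF and the iPS cells. The GMP means were higher, at 13250 ± 6916 CPM in slow (n = 3) and 18044 ± 7467 CPM in fast GMP (n = 5), but their libraries, from 6717 to 26595 CPM, overlapped both bulk MEF and iPS cells. The order of GMP and iPS cells depends on the scaling. With library totals in place of TMM, the means were 10465 in slow GMP, 12590 in fast GMP and 12155 in iPS cells. Among subunit genes with a group mean of at least 20 CPM, the median coefficient of variation was 67.3% in slow and 59.1% in fast GMP, against 26.3% to 35.9% in the other groups.

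The complexes did not keep constant proportions. Complex III made up 17.6% ± 3.83 of all subunit counts in bulk MEF (SD, n = 4), 9.27% ± 0.954 in slow MEF, 11.7% ± 0.553 in fast MEF and 16% ± 1.54 in iPS cells (n = 4 each). The 8 libraries of induced MEF, at 8.03% to 12.2%, all lay below the bulk MEF at 13.2% to 22.3% and the iPS cells at 14.2% to 17.4%. Complex V took 43.5% ± 1.73 in fast MEF and 43.9% ± 0.702 in iPS cells, against 36.9% ± 1.82 in bulk and 34.7% ± 2.89 in slow MEF, and complex IV took its largest MEF share in slow MEF, 28.1% ± 3.45. Of that complex IV sum in slow MEF, most came from 1 gene, Cox6a1, at 1155 of 1577 CPM. Per kilobase of transcript in bulk MEF, the highest levels were those of Cox6a1 at 1469 CPM per kb, Uqcrh at 776 and Atp5b at 640, and the median subunit of complex V stood at 137 CPM per kb against 32.6 for complex I.

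**Figure D1:**
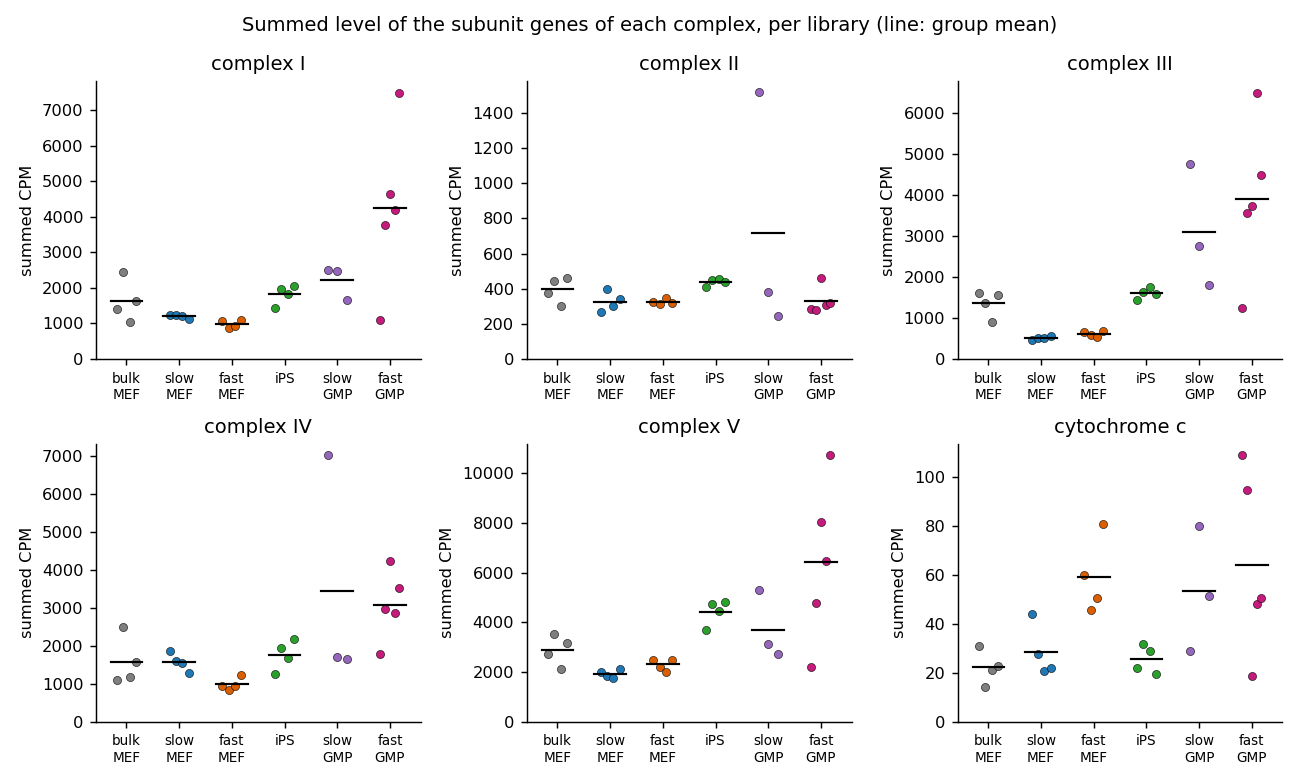
Summed CPM of the subunit genes of complexes I to V and of cytochrome c, 1 point per library and a line at each group mean. The induced MEF libraries lie lowest for complex III, at 473 to 685 CPM against 904 to 1618 in bulk MEF, and the GMP libraries scatter widely.

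Against fast MEF, iPS cells had higher levels of much of the chain. Of 84 member genes that passed the filter on low counts, 36 (42.9%) rose and 2 fell at an adjusted p under 0.05 in edgeR's quasi-likelihood test, against 38.4% of all 11882 genes tested, with 18.8% higher and 19.7% lower. The median log2 fold change of the members was 0.93, against 0.0 for all genes, and 75 of the 84 had a positive value. The rises covered 3 of 7 core and 10 of 28 accessory subunits of complex I, 5 of 9 subunits of complex III, 6 of 11 ubiquitous subunits of complex IV and 8 of 15 of complex V, but none of the 4 of complex II.

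Against bulk MEF, members fell more often than they rose in slow and fast MEF and rose more often than they fell in iPS cells. In slow MEF, 1 of 83 members rose and 9 fell (10.8%), where 10.5% of all genes were called, 5.51% higher and 4.99% lower. In fast MEF, 3 rose and 15 fell (18.1%), where 34.9% of all genes were called and 18.4% fell, so the share that fell was near the background. In iPS cells, 14 of 84 rose (16.7%) and 1 fell, where 47.4% of all genes were called and 24.1% rose. The median member changed by -0.36, -0.48 and 0.44 in these comparisons, beside 0.03, -0.05 and 0.10 for all genes. The bulk MEF libraries are shared by all of them, and the fast MEF and iPS libraries also enter the comparison of iPS cells with fast MEF. With library totals in place of TMM, the median of all genes moved to 0.15, 0.34 and 0.38, the calls in fast MEF became 5 higher and 7 lower (8.43%, where 13.1% of all genes fell), and those in iPS cells 26 higher and 0 lower. The share that rose in iPS cells was then 31.0%, against 28.9% of all genes, so that its place below or above the background depends on the scaling. In slow MEF the share that fell was 7.23% with library totals, against 3.89% of all genes.

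Between the 2 gates of induced MEF, few members were called. In fast against slow MEF, 3 of 83 rose and 6 fell (10.8% in all), where 31.7% of all 11742 genes were called. By direction, 3.61% of members rose and 7.23% fell, where 14.4% of all genes rose and 17.3% fell. This split depends on the scaling: it was 6 and 5 with DESeq2 size factors, 5 and 5 with upper-quartile factors, and 9 and 3 with library totals, which moved the median of all genes from -0.11 to 0.18. With library totals, 10.8% of members rose and 3.61% fell, where 18.9% of all genes rose and 13.6% fell. The share of members stayed below that of all genes in each direction under all of these scalings.

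**Figure D2:**
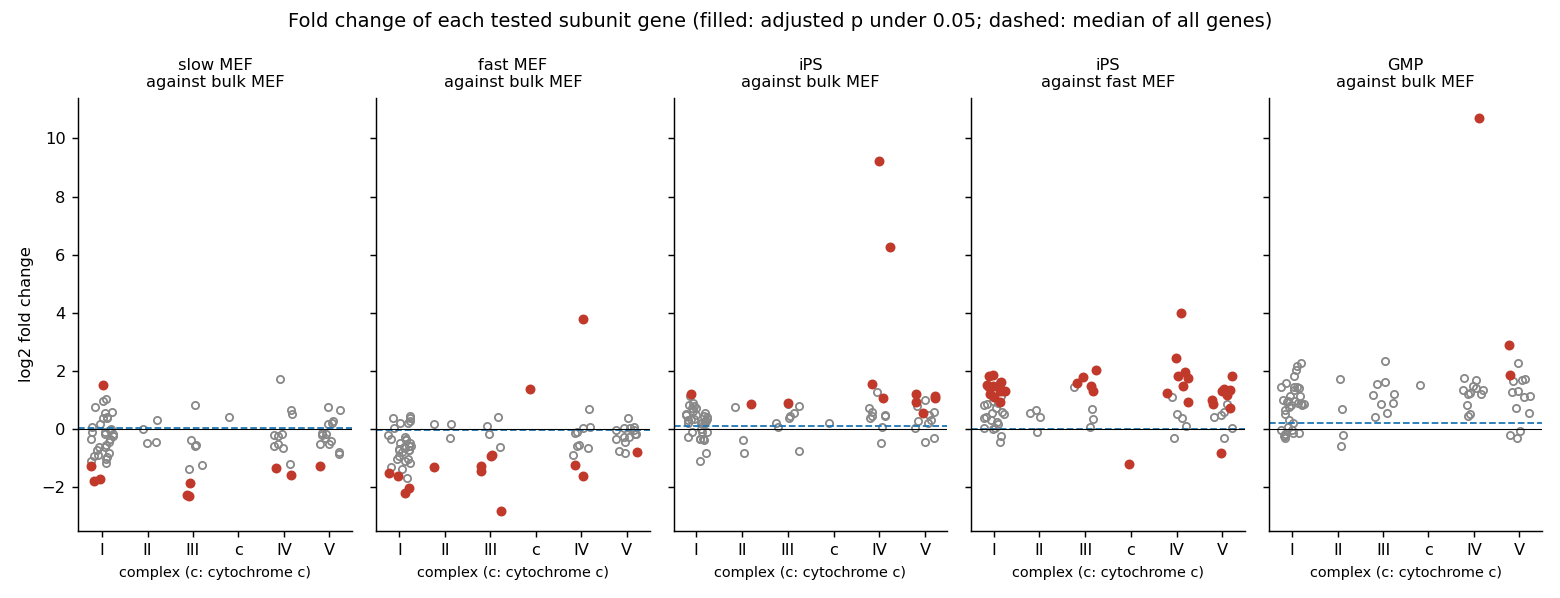
Log2 fold change of every tested subunit gene, by complex, in 5 comparisons, with filled points for adjusted p under 0.05 and a dashed line at the median of all genes tested. In iPS cells against fast MEF most points lie above the line, while the complex III points of slow and fast MEF against bulk MEF reach -2.33 and -2.84.

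Complex III takes electrons from ubiquinol and hands them to cytochrome c. In induced against bulk MEF, 3 of its 9 subunits fell in the slow gate (33.3%, where 4.99% of all genes fell) and 5 in the fast gate (55.6%, where 18.4% of all genes fell), and the largest fall of any member in each gate was in this complex. Core subunits of complex I were also called lower, 2 of 7 in the slow gate (28.6%) and 3 of 7 in the fast gate (42.9%). Their median log2 fold changes were -0.99 and -1.12, beside -1.27 and -0.9 for complex III, so the fall was not particular to complex III. Of the 28 tested accessory subunits of complex I, 1 fell in each gate (3.57%). Uqcrh, the hinge subunit of complex III, which helps cytochrome c to bind, read 708, 280, 247 and 463 CPM in bulk MEF. It read 70.0, 104, 115 and 49.5 CPM in slow MEF and 55.2, 61.6, 63.6 and 63.2 CPM in fast MEF. All 8 libraries of induced MEF lay below the lowest bulk MEF library and below the iPS cells, which read 246, 220, 252 and 276 CPM. The log2 fold change was -2.28 ± 0.39 (SE) in slow against bulk MEF (adjusted p = 0.00496), -2.84 ± 0.35 in fast against bulk MEF (adjusted p = 0.000166) and 2.02 ± 0.19 in iPS against fast MEF (adjusted p = 5.44e-05).

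Uqcrc1, a core protein of complex III, read 229, 205, 139 and 230 CPM in bulk MEF and 29.6, 51.2, 25.1 and 49.1 CPM in slow MEF. Fast MEF lay between them without overlap, at 95.7, 116, 54.2 and 78.7 CPM, and iPS cells at 148, 239, 363 and 264 CPM. Its log2 fold change was -2.33 ± 0.33 in slow against bulk MEF (adjusted p = 0.00156), -1.28 ± 0.28 in fast against bulk MEF (adjusted p = 0.0049) and 1.57 ± 0.31 in iPS against fast MEF (adjusted p = 0.00333). The rise of 1.02 ± 0.34 from slow to fast MEF (adjusted p = 0.0436) did not hold without any 1 of slow MEF 1 or 3 or fast MEF 1, 2 or 4, with adjusted p up to 0.129.

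Cyc1, the haem-bearing cytochrome c1 subunit, read 230, 212, 156 and 386 CPM in bulk MEF, 67.3, 82.4, 32.0 and 81.6 in slow MEF, and 147, 108, 136 and 132 in fast MEF. The iPS libraries, at 577, 474, 359 and 391 CPM, lay above all libraries of induced MEF. Its fall in slow MEF was -1.86 ± 0.37 (adjusted p = 0.00964) and its rise from fast MEF to iPS cells 1.77 ± 0.21 (adjusted p = 0.000195). The fall in fast MEF, -0.94 ± 0.29 (adjusted p = 0.0254), was not called without fast MEF 2 or 4 or bulk MEF 4, and the rise in iPS over bulk MEF, 0.89 ± 0.29 (adjusted p = 0.0283), not without bulk MEF 1, 2 or 3 or iPS 1 or 2. Not every subunit moved this way. The small subunit Uqcrb read 26.0 ± 7.52 CPM in bulk, 44.4 ± 21.1 in slow and 35.6 ± 14.0 in fast MEF (SD, n = 4 each), and the core protein Uqcrc2 95.6 ± 14.7, 70.9 ± 7.55 and 106 ± 27.7 CPM, with no call in either gate against bulk MEF. Uqcr11 and Uqcrq were the other 2 called in the fast gate, at -1.46 ± 0.49 and -0.9 ± 0.32 (adjusted p = 0.0391 and 0.0487). Leaving out 1 library ended the first call in 5 of 8 cases and the second in 6 of 8.

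**Figure D3:**
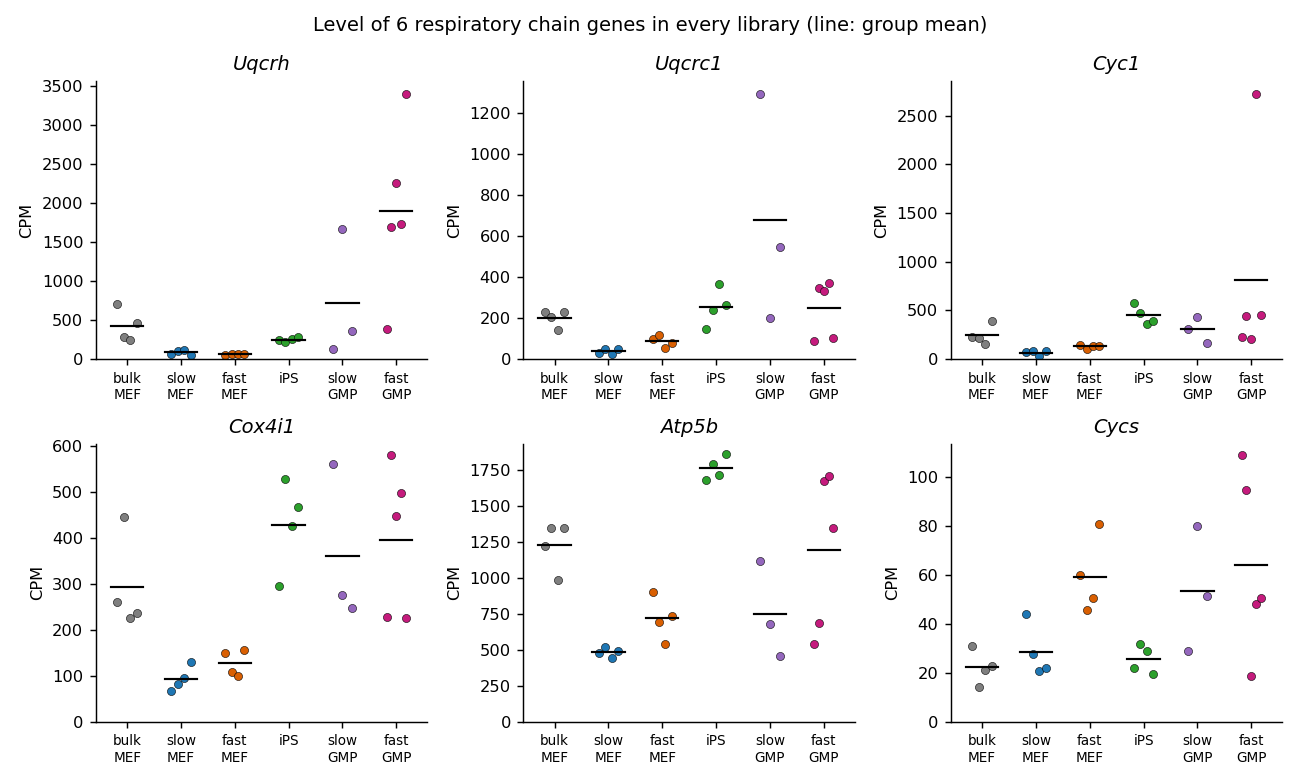
CPM of Uqcrh, Uqcrc1, Cyc1, Cox4i1, Atp5b and Cycs in every library, with a line at each group mean. The first 5 are lower in both gates of induced MEF than in bulk MEF and iPS cells, while Cycs is highest among these groups in fast MEF, at 45.7 to 80.9 CPM.

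Cytochrome c itself went the other way in fast MEF. Cycs encodes the mobile carrier between complexes III and IV, which also triggers cell death when it leaves mitochondria. It read 31.0, 14.2, 21.3 and 22.6 CPM in bulk MEF, 59.9, 45.7, 50.7 and 80.9 in fast MEF, and 21.9, 31.9, 28.9 and 19.4 in iPS cells. The fast MEF libraries lay above all libraries of these groups, and slow MEF, at 44.1, 27.9, 20.8 and 21.9 CPM, lay below fast MEF as well. Cycs rose by 1.36 ± 0.35 on the log2 scale in fast against bulk MEF (adjusted p = 0.0119) and was lower in iPS than in fast MEF (-1.22 ± 0.3, adjusted p = 0.00915). The difference between fast and slow MEF, 0.93 ± 0.35, was not called (adjusted p = 0.0702).

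Complex I takes electrons from NADH. Its core subunit Ndufv1, which binds NADH, read 218, 371, 70.2 and 202 CPM in bulk MEF, 75.8, 63.5, 55.7 and 41.3 in slow MEF, 91.3, 48.5, 81.7 and 81.0 in fast MEF, and 190, 246, 167 and 230 in iPS cells. Bulk MEF 3 lay within the range of the induced MEF, and the other 3 bulk libraries lay far above it. The change was -1.82 ± 0.44 in slow (adjusted p = 0.0223) and -1.54 ± 0.44 in fast against bulk MEF (adjusted p = 0.0192). Neither was called without bulk MEF 2, the slow gate also not without slow MEF 2, 3 or 4 and the fast gate not without fast MEF 2. The rise in iPS over fast MEF, 1.45 ± 0.26 (adjusted p = 0.00197), was called with any 1 library left out.

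The iron-sulfur core subunit Ndufs7 read 103, 205, 91.6 and 106 CPM in bulk MEF and 49.2, 32.8, 30.8 and 56.6 in fast MEF, a fall of 1.62 on the log2 scale (-1.62 ± 0.34, adjusted p = 0.0043) with no overlap. Ndufs8, another iron-sulfur subunit, fell to 9.43 ± 3.33 CPM in slow and 8.24 ± 5.37 in fast MEF, from 32.3 ± 16.9 in bulk MEF (SD, n = 4 each). Its adjusted p of 0.0442 and 0.0381 passed only narrowly, and leaving out any 1 of 7 libraries in the slow gate, or of 5 in the fast gate, ended the call. Ndufs1, the largest subunit of the complex, was not called, at 24.6 ± 5.59 CPM in bulk and 32.2 ± 6.38 in fast MEF (0.36 ± 0.34, adjusted p = 0.452).

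Accessory subunits of complex I surround the catalytic core. Between the gates of induced MEF, 1 of 28 tested rose and 3 fell (14.3% in all, below the 31.7% of all genes called), and none of the 7 core subunits was called. Ndufv3 read 108, 56.7, 54.3 and 82.2 CPM in slow MEF, above all libraries of bulk MEF (18.7, 30.8, 36.1 and 25.2) and fast MEF (18.3, 22.3, 6.93 and 19.6). It was lower in fast than in slow MEF by -2.29 ± 0.41 on the log2 scale (adjusted p = 0.00221) and higher in slow than in bulk MEF by 1.49 ± 0.36 (adjusted p = 0.0246), the second not called without slow MEF 1 or 4 or bulk MEF 1 or 4. Ndufa13, also known as Grim19, was low in fast MEF, at 19.9, 18.8, 2.94 and 22.9 CPM against 52.6, 59.0, 42.3 and 52.0 in slow and 68.8, 117, 33.5 and 71 in bulk MEF. Its fold changes were -1.81 ± 0.52 against slow (adjusted p = 0.0219, and 0.0516 without slow MEF 2) and -2.23 ± 0.57 against bulk MEF (adjusted p = 0.0119). Ndufb8 read 37.7, 32.2, 32.7 and 42.7 CPM in fast MEF and 7.04, 16.4, 15.8 and 13.4 in slow MEF, higher in fast MEF by 1.35 ± 0.37 (adjusted p = 0.0191, and 0.0546 without fast MEF 4). Ndufaf4, an assembly factor, was higher in fast MEF (19.4, 38.1, 31.2 and 31.6 CPM) than in slow MEF (11.5, 9.36, 12.2 and 5.18) by 1.53 ± 0.42 (adjusted p = 0.0186, and 0.0593 without fast MEF 2) and than in bulk MEF (10.8 ± 2.72 CPM) by 1.43 ± 0.39 (adjusted p = 0.0165). In iPS cells, Ndufb11 read 35.7, 57.6, 66.3 and 65.4 CPM against 9.6, 17.1, 9.53 and 25.9 in fast MEF, a rise of 1.86 ± 0.4 (adjusted p = 0.00472). Ndufb10, an accessory subunit of the membrane arm, read 271 ± 54.0 CPM in iPS and 139 ± 45.6 in fast MEF, and its rise of 0.93 ± 0.29 (adjusted p = 0.0271) was lost without fast MEF 2 or 4 or iPS 2 or 4.

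Complex II, succinate dehydrogenase, also belongs to the tricarboxylic acid cycle. Its summed level was 396 ± 74.4 CPM in bulk MEF and 438 ± 22.6 in iPS cells (SD, n = 4 each), and its mean share of subunit counts ran from 4.38% to 6.20% over the MEF and iPS groups. The catalytic subunit Sdha read 104, 110, 93.7 and 158 CPM in bulk MEF and 145, 220, 229 and 245 in iPS cells. The groups overlapped, and the rise of 0.86 ± 0.27 (adjusted p = 0.0219) was lost without bulk MEF 1 or 3 or iPS 2, 3 or 4. The membrane anchor Sdhc fell in fast MEF, at 56.4, 53.0, 36.7 and 64.9 CPM against 101, 208, 80.5 and 119 in bulk MEF (-1.32 ± 0.33, adjusted p = 0.0105), with no overlap. The iron-sulfur subunit Sdhb read 106 ± 17.9 CPM in bulk, 72.8 ± 23.8 in slow and 86.2 ± 28.9 in fast MEF and 81.2 ± 18.6 in iPS cells, and was not called in any comparison.

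Complex IV, cytochrome c oxidase, reduces oxygen to water. Cox4i1, its ubiquitous regulatory subunit, read 260, 446, 227 and 237 CPM in bulk MEF, 67.7, 81.7, 95.8 and 130 in slow MEF, and 149, 108, 99.2 and 156 in fast MEF. The iPS libraries, at 296, 528, 426 and 467 CPM, overlapped bulk MEF but no library of induced MEF. Cox4i1 changed by -1.59 ± 0.31 in slow (adjusted p = 0.00863) and -1.24 ± 0.28 in fast against bulk MEF (adjusted p = 0.00584), and by 1.75 ± 0.24 in iPS against fast MEF (adjusted p = 0.000443). Cox6c was likewise lower in induced MEF, with 51.6, 36.4, 32.1 and 35.9 CPM in bulk MEF, 12, 8.7, 10.6 and 21.1 in fast MEF, and 34.5, 68.9, 52.8 and 45.9 in iPS cells. Its change was -1.62 ± 0.39 in fast against bulk MEF (adjusted p = 0.00855) and 1.95 ± 0.38 in iPS against fast MEF (adjusted p = 0.00281). In slow MEF, at 14.7 ± 3.78 CPM (SD, n = 4), its fall of -1.37 ± 0.37 (adjusted p = 0.0371) was lost on leaving out any 1 library except slow MEF 2.

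Cox6a1, the ubiquitous form of subunit VIa, did not follow Cox4i1. It read 1548, 1213, 1116 and 745 CPM in slow MEF and 429, 371, 421 and 628 in fast MEF, which did not overlap (-1.44 ± 0.26, adjusted p = 0.0023). Bulk MEF spread from 366 to 1498 CPM, over the whole fast MEF range and most of the slow MEF range, and was called against neither. In iPS against fast MEF, Cox8a (160 ± 15.8 against 68.4 ± 15.3 CPM) rose by 1.22 ± 0.24 (adjusted p = 0.00346) and Cox7b (44.8 ± 13.4 against 16.2 ± 4.78 CPM) by 1.48 ± 0.35 (adjusted p = 0.00784). Cox7b also rose over bulk MEF, at 15.6 ± 7.71 CPM, by 1.54 ± 0.42 (adjusted p = 0.0117), and Cox5a, at 31.1 ± 5.83 against 15.1 ± 5.56 CPM, by 1.06 ± 0.37 (adjusted p = 0.0367, lost on leaving out any 1 library except bulk MEF 4). Ndufa4, which despite its name sits in complex IV, read 24.9 ± 7.42 CPM in bulk MEF, 41.7 ± 16.9 in fast MEF and 32.9 ± 11.6 in iPS cells, and was not called between any of these.

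The tissue-restricted subunits of complex IV replace a common form in few cell types, and 3 of them were called in at least 1 comparison. Few of the 7 passed the filter on low counts. In iPS cells, 2 were tested and called against bulk MEF (47.4% of all genes called), and 2 against fast MEF (38.4%). In fast against bulk MEF 1 was tested and called (34.9%), and in GMP against bulk MEF 1 of 2 (21.3%). A gene near 0 in 1 group passes the filter through the other, so such calls and p-values add little to the counts themselves. Cox6b2, the form of subunit VIb known from testis, read 0.684, 0.28, 0.506 and 2.26 CPM in bulk MEF, 22.1, 5.36, 13.7 and 11.2 in fast MEF, and 92.9, 52.3, 59.7 and 77.3 in iPS cells. The groups did not overlap. It rose by 3.78 ± 0.78 in fast (adjusted p = 0.00399) and 6.27 ± 0.66 in iPS cells against bulk MEF (adjusted p = 6.27e-05), which became 4.64 and 7.12 without bulk MEF 4, and by 2.42 ± 0.44 in iPS against fast MEF (adjusted p = 0.00202). Slow MEF, at 0.961, 8.14, 2.14 and 0.587 CPM, overlapped both bulk and fast MEF. Its partner Cox6b1 read 91.8 ± 24.4 CPM in bulk MEF and 94.1 ± 39.4 in iPS cells. Per kilobase, Cox6b2 made up 50.8% ± 15.5 of the Cox6b pair in iPS cells (SD, n = 4), 16.9% ± 9.59 in fast MEF and 1.48% ± 1.52 in bulk MEF.

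Cox4i2, the form of subunit IV known from lung and from oxygen-sensing cells, had its counts in GMP. There were 28 to 478 counts in each of the 8 GMP libraries and at most 5 in any of the other 16, with 1 count in all bulk MEF together. In CPM it read 10.1, 76.8 and 62.5 in slow GMP and 138, 15.2, 40.9, 125 and 312 in fast GMP, so that the gates overlapped. With GMP and bulk MEF each pooled, 1788 counts against 1 gave a ratio of 3368, with an exact binomial 95% interval, for counting error only, of 604 to 133116. The fitted log2 fold change of 10.72 ± 1.46 (adjusted p = 0.000188) depends on the prior count, and was 11.62 without bulk MEF 4, which holds that count. Per kilobase, Cox4i2 made up 14.8% ± 11.3 of the Cox4i pair in slow GMP (SD, n = 3) and 25.7% ± 22.9 in fast GMP (n = 5), at most 58.5% in 1 library.

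Cox7a1, the form of subunit VIIa known from heart and muscle, had no count in bulk MEF and 25, 29, 41 and 221 counts in the iPS libraries. Against a floor of 3 counts over the bulk MEF group, iPS cells were at least 81.8-fold higher, and at least 32.5-fold without iPS 4, for counting error only. Most of these counts came from 1 library: iPS 4 read 17.7 CPM and the others 3.8, 2.53 and 2.0. The fitted value against bulk MEF, 9.22 ± 1.55 (adjusted p = 0.0024), was 7.96 and still called without iPS 4, while the rise over fast MEF (3.98 ± 1.19, adjusted p = 0.0245) became 2.72 and was not called without it. Nor was it called without fast MEF 2 or 4, and without fast MEF 3 it was 4.83. In fast GMP it read 9.85, 1.14, 2.7, 22.9 and 0 CPM. Its partner Cox7a2 was itself low, at 11.2 ± 4.2 CPM in bulk MEF and 15.4 ± 5.3 in iPS cells (SD, n = 4 each).

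**Figure D4:**
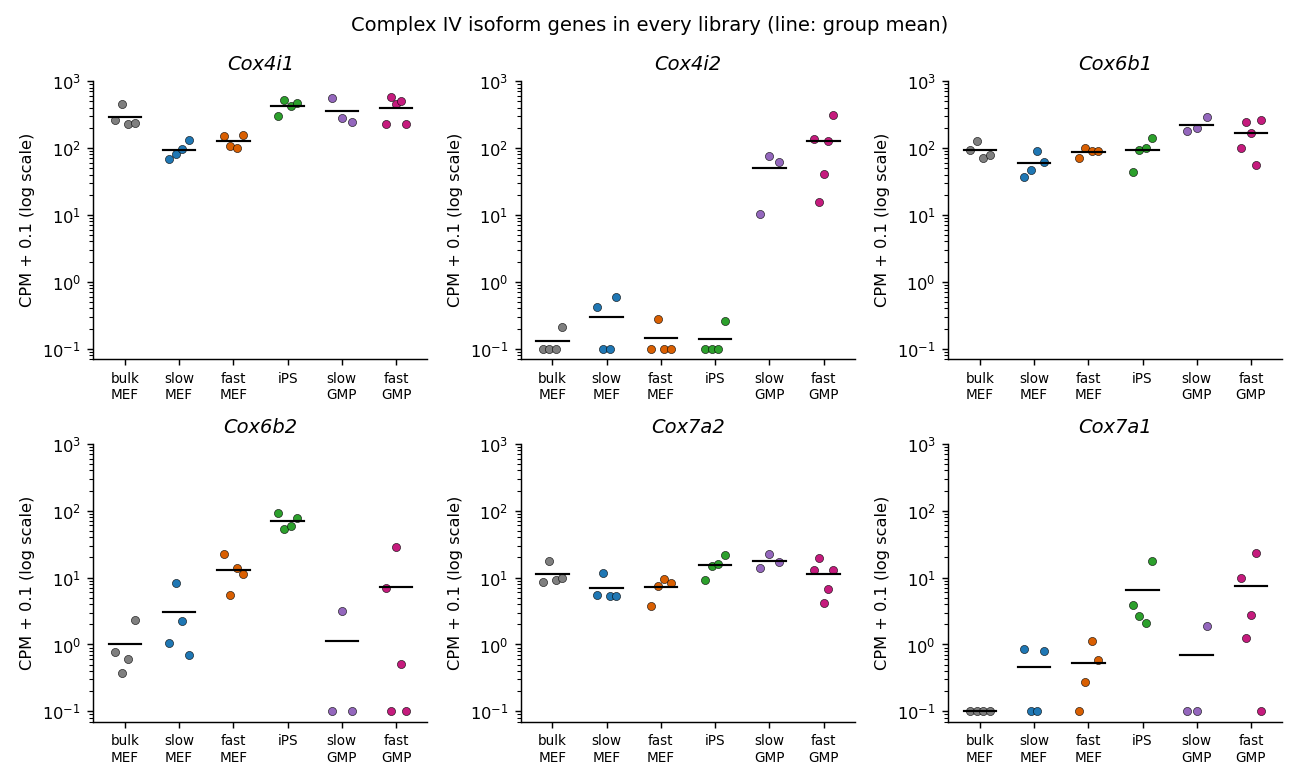
CPM + 0.1 on a log scale for 3 isoform pairs of complex IV in every library, with a line at each group mean. Cox4i2 is above 10 CPM in GMP only, Cox6b2 above 50 CPM in iPS cells only, and Cox7a1 is at 0 in the 4 bulk MEF libraries.

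The other restricted forms had few counts, with 1 exception. Cox8b, the muscle form of subunit VIII, had 1053 counts (305 CPM) in fast GMP 1, at most 22 counts in any other library and none in bulk MEF or slow GMP. The 5 muscle markers summed to 250 CPM in fast GMP 1 and to 0.834 to 40.0 CPM in the remaining GMP libraries. In fast GMP 1 this sum came from Ckm at 119, Myh3 at 118 and Tnnt2 at 11.6 CPM, while Myog was at 1.45 CPM and Actc1 at 0.579 CPM, below the 10.8 CPM of Actc1 in slow GMP 1. In the remaining GMP libraries Ckm reached 1.08 CPM and Myh3 39.3 CPM. Their part in the Cox8b value was not tested. Cox6a2 had at most 26 counts in a library, Cox7b2 at most 8 and Cox8c at most 2. Ndufa4l2, a hypoxia-responsive relative of Ndufa4, had 182 of its 228 iPS counts in iPS 3 and 51 of its 67 slow MEF counts in slow MEF 4, and none in fast MEF.

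Complex V, the ATP synthase, had a summed level of 3694, 4747, 4439 and 4813 CPM in the iPS libraries, above every MEF library. Bulk MEF reached 3517 CPM, fast MEF 2502 and slow MEF 2132. Its catalytic subunit Atp5b read 1223, 1346, 988 and 1347 CPM in bulk MEF, 475, 519, 440 and 494 in slow MEF, 904, 691, 540 and 735 in fast MEF, and 1680, 1790, 1718 and 1861 in iPS cells. None of the 4 groups overlapped another. Atp5b changed by -1.3 ± 0.18 in slow (adjusted p = 0.0015) and -0.82 ± 0.19 in fast against bulk MEF (adjusted p = 0.00662), by 1.3 ± 0.16 in iPS against fast MEF (adjusted p = 0.000231), and by 0.53 ± 0.16 in iPS against bulk MEF (adjusted p = 0.0218, lost without iPS 1, 3 or 4). The other large subunit of the catalytic head, Atp5a1, was not called in either gate, at 386, 257, 272 and 443 CPM in bulk, 425, 306, 214 and 236 in slow and 367, 396, 300 and 348 in fast MEF. In iPS cells it read 766, 603, 631 and 573 CPM and rose by 0.93 ± 0.23 over bulk MEF (adjusted p = 0.00752) and 0.86 ± 0.16 over fast MEF (adjusted p = 0.00211).

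Subunit c, which forms the rotating ring in the membrane, is encoded by 3 genes whose mature proteins are identical. All rose in iPS over fast MEF: Atp5g1 from 65.0 ± 21.8 to 226 ± 47.9 CPM (1.8 ± 0.28, adjusted p = 0.000926), Atp5g2 from 159 ± 27.9 to 356 ± 113 (1.16 ± 0.27, adjusted p = 0.00719) and Atp5g3 from 205 ± 24.4 to 519 ± 150 (1.34 ± 0.25, adjusted p = 0.00219). Atp5g1 and Atp5g3 also rose over bulk MEF, by 1.07 ± 0.32 (adjusted p = 0.0189) and 1.2 ± 0.34 (adjusted p = 0.0157), both lost without iPS 3. Atp5o, part of the stalk that holds the head, read 127, 143, 166 and 116 CPM in slow MEF, above fast MEF at 74.7, 73.2, 66.3 and 76.7 (-1.05 ± 0.23, adjusted p = 0.0061). Atp5d, of the central stalk, was besides Cycs the other member lower in iPS than in fast MEF, at 160, 198, 224 and 303 against 377, 291, 417 and 502 CPM (-0.85 ± 0.25, adjusted p = 0.0235), with overlap between iPS 4 and fast MEF 2. This call was lost without fast MEF 4 or iPS 2.

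Among GMP, no member passed between the gates. For fast against slow GMP, edgeR called 0 of 82 members and 0.0% of all genes. At an unadjusted p under 0.05 there were 7 members and 742 genes in all, and DESeq2 called 1 member and 97 genes. Against bulk MEF, 3 of 84 members rose (3.57%), where 21.3% of all genes were called, 11.5% higher and 9.79% lower, and the median member stood at 1.04 beside 0.18 for all genes. Besides Cox4i2 these were Atp5k, subunit e of the ATP synthase, and Atp5g3. Atp5k read 22.0, 160 and 197 CPM in slow GMP and 111, 352, 1207, 239 and 1503 in fast GMP, against 36.0, 53.6, 25.5 and 63.0 in bulk MEF (2.87 ± 0.84, adjusted p = 0.0254, lost without any 1 bulk MEF library or slow GMP 3). Slow GMP 1 lay below all 4 bulk MEF libraries. Atp5g3 read 762, 369 and 365 CPM in slow and 381, 541, 798, 1009 and 2689 in fast GMP, against 144, 371, 167 and 227 in bulk MEF (1.85 ± 0.62, adjusted p = 0.0461, not called without any 1 bulk MEF or slow GMP library). The count of 3 called members was 12 without fast GMP 1, 1 without any 1 of the 4 bulk MEF libraries or slow GMP 3, and 23 by DESeq2, and with library totals the median of all genes was -0.22. The 12 were 14.5% of members, where 24.1% of all genes were called, and the 23 were 27.4%, against 29.8%. Uqcrh, with 128, 1671 and 356 CPM in slow and 380, 1687, 2254, 1735 and 3392 in fast GMP, overlapped bulk MEF and was not called (1.59 ± 0.71, adjusted p = 0.125).

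The test of whether the gates differed otherwise in MEF than in GMP called 1 of 85 members (1.18%, against 1.40% of all genes, 0.601% with a positive and 0.796% with a negative difference). This was Ndufa2, a complex I accessory subunit. It read 31.7, 59.8, 23.1 and 32.1 CPM in slow MEF and 16, 21.2, 18.2 and 40.1 in fast MEF, which overlapped. In GMP it read 13.3, 16.7 and 25.1 CPM in slow and 72.7, 97.9, 760, 420 and 212 in fast libraries, which did not. Within GMP its fold change of 4.06 ± 1.08 was not called (adjusted p = 0.662). The difference of the log2 fold changes, MEF minus GMP, was -4.82 ± 1.08 (adjusted p = 0.0321). The call ended in 10 of the 16 fits that left out 1 library, and the value was -4.06 without fast GMP 3.

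Of the other genes taken by the prefixes, Cox4nb and Atp5sl passed between iPS cells and fast MEF, at 550 ± 229 against 159 ± 16.4 CPM (1.77 ± 0.28, adjusted p = 0.00089) and 67.9 ± 40.9 against 8.17 ± 3.08 CPM (3.05 ± 0.48, adjusted p = 0.000988). Cox7a2l, which links complexes III and IV into supercomplexes, read 253, 240, 164 and 277 CPM in bulk MEF, 120, 91.0, 186 and 108 in fast MEF, and 166, 94.6, 125 and 148 in iPS cells. The groups overlapped. Against bulk MEF it changed by -0.91 ± 0.3 in fast MEF (adjusted p = 0.0359) and -0.8 ± 0.26 in iPS cells (adjusted p = 0.0297), calls that ended in 6 and 4 of the 8 fits that left out 1 library.

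The genes that feed, build and regulate the chain were read from 4 lists. Of 16 genes of the tricarboxylic acid cycle and pyruvate dehydrogenase, 4 rose and 4 fell in iPS against fast MEF (25% each way, where 18.8% of all genes rose and 19.7% fell). Idh3g, a subunit of isocitrate dehydrogenase, rose from 155 ± 24.3 to 572 ± 72.3 CPM (1.88 ± 0.18, adjusted p = 5.48e-05), and Dlst, of the oxoglutarate dehydrogenase complex, fell from 238 ± 23.7 to 84.3 ± 11.0 CPM (-1.5 ± 0.19, adjusted p = 0.000252). Citrate synthase, Cs, was 266 ± 20.5 CPM in fast and 106 ± 10.6 in slow MEF (1.22 ± 0.2, adjusted p = 0.00153). Of 8 tested carriers and uncoupling proteins, Slc25a5, an ATP/ADP carrier, rose in iPS over bulk MEF from 84.6 ± 30.5 to 549 ± 32.7 CPM (2.71 ± 0.29, adjusted p = 7.11e-05), while its muscle-type relative Slc25a4 fell from 942 ± 194 to 396 ± 71 CPM (-1.24 ± 0.22, adjusted p = 0.00122). Ucp2, an uncoupling protein family member, read 33.2 ± 15.2 CPM in bulk MEF, 8.17 ± 4.51 in fast MEF, 263 ± 26.3 in iPS cells and 619 ± 185 over all 8 GMP libraries. It was called higher in iPS cells than in fast MEF (4.99 ± 0.43, adjusted p = 2.99e-05) and in GMP than in bulk MEF (4.35 ± 0.62, adjusted p = 0.000266).

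Among 13 tested regulators of mitochondrial biogenesis, 4 rose and 1 fell in fast against slow MEF (38.5% in all, where 31.7% of all genes were called). Yy1 and Nrf1, both activators whose motifs were looked up in the promoters, went opposite ways. Yy1 fell, at 436 ± 331 CPM in fast and 2287 ± 1911 in slow MEF, with overlap (-2.5 ± 0.71, adjusted p = 0.0208). Its call was lost without slow MEF 4 or fast MEF 2, 3 or 4. Nrf1 rose by 1.77 (adjusted p = 0.0236), a call lost without slow MEF 1 or 2 or fast MEF 3, and was 1.15 without the last. Ppargc1b, a coactivator of respiratory genes, read 23.7 ± 15.3 CPM in fast and 0.877 ± 0.736 in slow MEF (4.59 ± 0.97, adjusted p = 0.00532, and 5.23 without slow MEF 2) and 2.39 ± 1.87 in iPS cells (-3.34 ± 0.79 against fast MEF, adjusted p = 0.0083). The related Pprc1 read 93.7 ± 10.6 in fast and 34.5 ± 8.62 in slow MEF (1.33 ± 0.28, adjusted p = 0.00494) and 193 ± 28.0 CPM in iPS cells (1.03 ± 0.2 against fast MEF, adjusted p = 0.0032). Of 22 tested assembly factors, 6 rose and 1 fell in iPS against fast MEF (31.8% in all, below the 38.4% of all genes called). Cox15, a haem A synthesis enzyme, was the one that fell, from 30.0 ± 12.2 to 11.4 ± 2.08 CPM (-1.42 ± 0.4, adjusted p = 0.0179). Those that rose included the copper chaperone Cox17, from 4.09 ± 1.64 to 28.0 ± 14.8 CPM (2.78 ± 0.55, adjusted p = 0.00321), and the complex II assembly factor Sdhaf1, from 1.56 ± 1.1 to 19.3 ± 9.86 CPM (3.61 ± 0.75, adjusted p = 0.00429).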

How the data were processed

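The deposited table holds raw read counts per gene symbol for 24 libraries. Per the submitters' processing notes, reads passed through CASAVA 1.8.2, were aligned with TopHat2 2.0.4 to mm9 and were counted with HTSeq. The annotation, the use of strand and the treatment of reads shared by gene copies are not given in the sources that were used here, so counts of genes with pseudogene copies are uncertain. The members and gene lists were chosen with earlier results of these data known. Genes with low counts were dropped by filterByExpr, libraries were scaled by TMM, and each comparison was fitted on its own groups with edgeR 4.0.16 (quasi-likelihood F test, 2-sided) in R 4.3.3. For GMP against bulk MEF, the mean of the 2 gate coefficients was used. P-values were adjusted by Benjamini-Hochberg over all genes tested, with a threshold of 0.05. Standard errors were taken as the fold change over the root of F, and levels are CPM with TMM factors over all 24 libraries. Alternatives were DESeq2 1.42.0, other scalings and filters, all 24 libraries in 1 fit, a replicate block, removal of Rn45s and Lars2, and leaving out each library. The test was tried on simulated data first. In the MEF and iPS comparisons that were simulated, it recovered most of the larger imposed changes but missed most of the smaller ones. It recovered few in GMP against bulk MEF, and none in fast against slow GMP or in the interaction. Far fewer genes were changed in the simulation than were called in the data for the MEF and iPS comparisons and for GMP against bulk MEF. Recovery in the data can therefore differ from that in the simulation. A member that was not called in these last 3 comparisons cannot be taken as unchanged, and smaller changes can be missed in the others too.

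Genes named by rule were the isoform sets of complexes IV and V, the Ndufa4 pair and Cycs, up to 6 called members per comparison and direction with the largest fold change among those whose libraries did not overlap, the 2 members of each complex with the highest mean, and up to 3 called genes of each other list. Atp5d, Atp5k, Cox15, Ndufs1, Sdhb, Sdhc, Uqcr11, Uqcrb, Uqcrc2 and Uqcrq, and some calls of named genes outside the comparison that named them, were added after their values were seen. Levels per kilobase use the shortest principal transcript of each gene in GENCODE M21, from a later build than the reads. Totals of 2098846 to 18648132 counts set the precision, and intervals and floors cover counting error only. Within groups, 37 pairs of libraries were compared and none differed by as little as sampling noise (lowest chi-square per degree of freedom 40.3).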

Additional observations from a re-analysis of the deposited data

Results flagged for a closer look

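Among 40 genes looked at in 5 groups of 4 or 5 libraries each, 188 groups were tested for a library far from the others, and 19 were found. The rule would flag about 1 in 20 by chance for normally distributed values. CPM need not be so distributed, so 19 cannot be read as more than chance. Bulk MEF 2 was the high library for Cox4i1 (446 CPM), Ndufb10 (379 CPM), Ndufs7 (205 CPM) and Cox7a2 (17.5 CPM). Slow MEF 2 was high for Cox6c (20.3 CPM) and Cox7a2 (11.7 CPM), and slow MEF 4 for Ndufa4l2 (4.99 CPM).

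In iPS cells, library 1 was low for Atp5g1 (154 CPM) and Atp5g3 (295 CPM), library 3 was high for Atp5o (143 CPM), and library 4 was high for Cox7a1 (17.7 CPM). Fast MEF 3 held the only Cox8b counts of its group (3.81 CPM).

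In fast GMP, a single library was far above the other 4 for Cyc1 (2722 CPM in library 4), Cox7a2l (1971 CPM in library 4), Atp5g3 (2689 CPM in library 5), Ndufv3 (332 CPM in library 5), Cox6b2 (28.7 CPM in library 3) and Cox8b (305 CPM in library 1). For Ndufb11, library 1 was low, at 43.7 CPM.

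The difference between gates was itself different in MEF and GMP for Ndufa2, by -4.82 ± 1.08 on the log2 scale (adjusted p = 0.0321, edgeR's quasi-likelihood test over 16 libraries). The call was lost in 10 of the 16 fits that left out 1 library, with library totals and with the replicate block.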

How the results depend on the processing

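Over 155 called fold changes of members and named genes, the direction was kept under each alternative and each left-out library: 2170 alternative values stayed on the same side of the threshold, 508 were no longer past it and 0 changed sign. The 155 were chosen because they were called in these libraries, and the alternatives reuse nearly all of them. A change of sign was therefore unlikely from the start. The count of called members moved more. It was 9 for fast against slow MEF, 16 by DESeq2's own test, 1 in the fit of all 24 libraries and 5 to 10 with 1 library left out. It was 10 for slow against bulk MEF, 0 with all libraries, 6 with the replicate block and 5 to 10 leaving out 1. For fast against bulk MEF it was 18 (21.7% against 34.9%), 2 with all libraries (2.25% against 9.57%) and 12 to 20 leaving out 1. For iPS against bulk MEF it was 15 (17.9% against 47.4%), 26 with library totals (31.0% against 48.3%), 4 with all libraries (4.49% against 20.0%) and 8 to 20 leaving out 1. For iPS against fast MEF it was 38 (45.2% against 38.4%), 8 with all libraries (8.99% against 10.6%) and 26 to 41 leaving out 1. For fast against slow GMP it was 0 (0.0% against 0.0%), 1 by DESeq2 (1.22% against 0.965%), 2 with all libraries (2.25% against 2.43%) and 0 to 0 leaving out 1. For GMP against bulk MEF it was 3 (3.57% against 21.3%), 8 with DESeq2 size factors (9.52% against 20.9%), 9 with upper-quartile factors (10.7% against 21.4%) and 8 with the stricter filter of 5 CPM (9.76% against 21.7%). It was 23 by DESeq2 (27.4% against 29.8%), 19 with all libraries (21.3% against 31.9%), 1 with the replicate block (1.19% against 17.7%) and 1 to 12 leaving out 1. For the interaction it was 1 (1.18% against 1.4%), 0 with library totals (0.0% against 1.42%), 8 by DESeq2 (9.41% against 11.2%), 5 with all libraries (5.62% against 6.76%), 0 with the block (0.0% against 0.666%) and 0 to 2 leaving out 1. The cause of these changes was not tested. The fit of all libraries shares 1 estimate of spread with the scattered GMP libraries by construction. It also differs in its filter and scaling, with 15813 genes tested against 11742 for fast against slow MEF, and these parts were not separated. The summed subunit level was 5210 CPM in slow MEF with upper-quartile factors. With library totals it was 6222 in slow MEF, 6636 in fast MEF, 12155 in iPS cells, 10465 in slow GMP and 12590 in fast GMP. Libraries with the same replicate number did not deviate together (correlations of -0.063 to 0.073). Noise of single libraries enters these values, so they cannot show whether such libraries shared a culture or a sort. The GMP libraries held 2098846 to 4411526 counts. Removing Rn45s and Lars2 left fast against slow GMP at 0 calls, and the parts of depth and of scatter between libraries were not tested.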

Other observations

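The proportions of the 3 genes for subunit c, per kilobase of transcript, differed between groups and scattered in GMP. Atp5g2 made up 47.4% of their sum in bulk MEF, 56.6% in slow MEF, 47.5% in fast MEF, 41.8% in iPS cells, 38.9% in slow GMP and 40.4% in fast GMP, and Atp5g1 made up the smallest mean share in each of the 6 groups, from 13.5% to 20.8%. The Atp5g2 share was 47.8% to 61.5% in the slow MEF libraries and 39.6% to 44.8% in the iPS libraries, which did not overlap. In fast GMP it spanned 16.7% to 65.4%, and that of Atp5g3 21.2% to 73.0%. These are descriptions with no test.

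The outer membrane channel Vdac1 was higher in fast than in bulk MEF (1607 ± 42.2 CPM in fast MEF, SD, n = 4, with a log2 fold change of 1.16 ± 0.16 and an adjusted p of 0.000317 in edgeR's quasi-likelihood test). Tfam, which packages and transcribes mitochondrial DNA, was higher in iPS cells than in bulk MEF, at 21.1 ± 6.01 against 4.8 ± 3.51 CPM (n = 4 each, 2.11 ± 0.62, adjusted p = 0.0182 in the same test).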
